A study of Mus musculus with 7 samples.

Results

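The oligoadenylate synthetases are interferon-induced enzymes of the antiviral response, followed here in arthritic mouse ankles. The genes were chosen by name, as the 7 rows whose Entrez number maps to Oas1a, Oas1b, Oas1g, Oas2, Oas3, Oasl1 or Oasl2, out of 27179 genes in the table. All 7 libraries came from skinned whole ankles of DBA1 mice in which immunisation with collagen had brought on arthritis. A lipoplex, a lipid carrier of RNA, had been injected into the joint, carrying either an irrelevant control microRNA (control replicates 2, 3 and 5, n = 3) or a mimic of miR-17-5p (mimic replicates 1, 2, 4 and 5, n = 4). Both groups therefore shared the strain, the disease and the carrier, and no uninjected or non-arthritic ankle was analysed here. Age, dose and time after injection are not given in the labels. They also do not say whether each ankle is from a different mouse, so the p-values rest on the spread among these 7 samples, which may be technical.

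When a synthetase binds double-stranded RNA it joins ATP into short oligoadenylates, a second messenger of the antiviral state. In mice the Oas1 gene has been copied several times, Oas2 and Oas3 encode larger enzymes with OAS domains in tandem, and the Oasl genes encode OAS-like proteins with a ubiquitin-like tail. Interferons induce these genes through factors such as STAT2 and IRF9, which bind a promoter sequence called the interferon-stimulated response element.

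The small RNA given to the mimic ankles is shown because it is the agent of the study, with the seed, bases 2 to 8, in capitals (RefSeq, build GRCm38.p6, chr14:115043684-115043706, plus strand).
miR-17-5p: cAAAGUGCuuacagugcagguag
Matches to this seed (GCACTTTA, GCACTTT or CACTTTA) were searched on the transcript strand in the longest 3 prime UTR that GENCODE annotates for each gene. None of the UTRs of the 7 synthetase genes held one, and 18.6% of 21054 genes with such a UTR did. With only 7 genes at that share, the absence does not set them apart, and UTR lengths were not matched. The UTRs searched ran from 497 bases for Oasl1 to 1625 bases for Oas2.

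The promoter stretches printed next hold the letters GAAANNGAAA, the core of the interferon-stimulated response element, which is in capitals. They are shown as background on the family, and their part in the levels was not tested. Each runs 5′ to 3′ on the gene's own strand from 130 bases before the annotated start to 10 bases after it (RefSeq, GRCm38.p6).
Oas1a (chr5:120907516-120907655, minus strand): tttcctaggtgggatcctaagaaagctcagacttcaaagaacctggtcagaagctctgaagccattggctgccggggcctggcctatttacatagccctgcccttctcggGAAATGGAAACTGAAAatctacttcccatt
Oas1g (chr5:120887604-120887743, minus strand): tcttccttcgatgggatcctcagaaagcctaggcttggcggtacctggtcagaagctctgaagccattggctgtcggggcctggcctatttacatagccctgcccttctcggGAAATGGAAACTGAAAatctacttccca
Oas3 (chr5:120777650-120777789, minus strand): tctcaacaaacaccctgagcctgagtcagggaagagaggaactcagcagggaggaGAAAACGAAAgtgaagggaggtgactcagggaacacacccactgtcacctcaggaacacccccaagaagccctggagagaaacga
Oas1c (chr5:120812505-120812644, minus strand): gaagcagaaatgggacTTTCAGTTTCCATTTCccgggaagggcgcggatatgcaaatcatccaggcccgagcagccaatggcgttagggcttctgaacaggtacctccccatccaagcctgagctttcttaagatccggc
The Oas1a and Oas1g stretches each hold 2 overlapping matches, which join into the 16 letters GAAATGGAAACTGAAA and begin 20 and 18 bases before the start. Oas1c, an Oas1 copy that is not among the 7, holds the same 16 letters on its other strand, at positions 120812613 to 120812628. That is the plus strand, the strand of Oas1b, whose first exon begins just after them, at 120812635. Oas3 holds a single match, GAAAACGAAA, that begins 75 bases before its start. Searched on both strands of the full 300 bases of each promoter in the table, the core was found for 3 of the 5 members present, Oas1a, Oas1g and Oas3, and in 3.44% of 32851 promoters. The joined 16 letters were found in 7 of those promoters. Oasl1 and Oasl2 had no match to these letters in that window. Oas1b and Oas2 were not in the promoter table, so the letters beside Oas1b are not counted for it. A second motif, TTCNNNGAA, the core of the gamma-activated site, was found in the Oas1a promoter (TTCAAAGAA, beginning 98 bases before the start) and in 8.30% of all promoters. It was not found in the other 4.

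All 7 genes lie on chromosome 5 in the authors' exon coordinates (mm10), in 2 groups. Oasl2 (114896934 to 114912245) and Oasl1 (114923240 to 114937911) are neighbours on the plus strand. The others lie further along: Oas2 (120730333 to 120749848), Oas3 (120753098 to 120777659), Oas1g (120876142 to 120887598) and Oas1a (120896256 to 120907525) on the minus strand, and Oas1b (120812635 to 120824163) on the plus strand. Oas1b and Oas1c start head to head, 121 bases apart. The exons of these genes overlap no other gene of the table. Oas1a and Oas1g are close copies: their longest GENCODE transcripts were 97.5% identical over 1860 aligned bases, and 57.6% of the 50-base windows of Oas1a also occur in Oas1g transcripts. Reads of this pair could be split or lost in counting, so their separate levels are uncertain. For Oas1b the share of windows found in any other gene was 3.41%, for Oas3 it was 0.792%, and for Oas2, Oasl1 and Oasl2 no window was shared.

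The libraries held between 27465276 and 31118975 reads assigned to genes, so 1 read in a gene with 1 kilobase of exon was worth between 0.0321 and 0.0364 FPKM (fragments per kilobase of exon, scaled to the library's total). Among the 7 members the counts behind the values ran from 88 reads for Oas1g in control replicate 2 to 6604 reads for Oasl2 in mimic replicate 4. Genes of the joint's own tissues were present at high levels in every library: summed FPKM lay between 12021 and 14363 for 8 synovial fibroblast markers and between 694 and 912 for 8 cartilage markers. Control replicate 2 stood apart for the members, with the lowest value of all 7 libraries at each of the 7 genes. The same library was also lowest for genes outside the family, Zbp1, Dhx58, Irf7 and Stat2 among them. The share of all genes that were lowest there was not counted. The members' fold changes are therefore also given without control replicate 2. Fold changes of other genes are for all 7 libraries unless stated.

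Every one of the 7 synthetase genes had a higher mean in the mimic ankles than in the control ankles. The log2 fold changes ran from 0.24 for Oas3 to 0.80 for Oasl2, with a median of 0.61, beside a median of -0.0063 over the 13418 genes tested, of which 48.3% had a value above 0. None of the 7 passed limma over all genes at an adjusted p under 0.05, where 0.0% of genes did in either direction. At an unadjusted p under 0.05 there were 3 members, Oas1b, Oasl1 and Oasl2, beside 7.48% of all genes that were higher at that level. With limma-voom on the reads recovered from the FPKM values the counts were also 0 at an adjusted and 3 at an unadjusted p under 0.05. Only Oas1b, 1 of 7, had every mimic library above every control, as 6.48% of all genes did. Without control replicate 2 the median log2 fold change of the members was 0.33, 6 of 7 were above 0, and Oas3 turned to -0.088. In that setting 0 members passed limma over all genes, which 0.857% of genes did upward and 1.51% downward. In whole ankles, more cells that express a gene and more RNA per cell cannot be told apart.

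**Figure D1:**
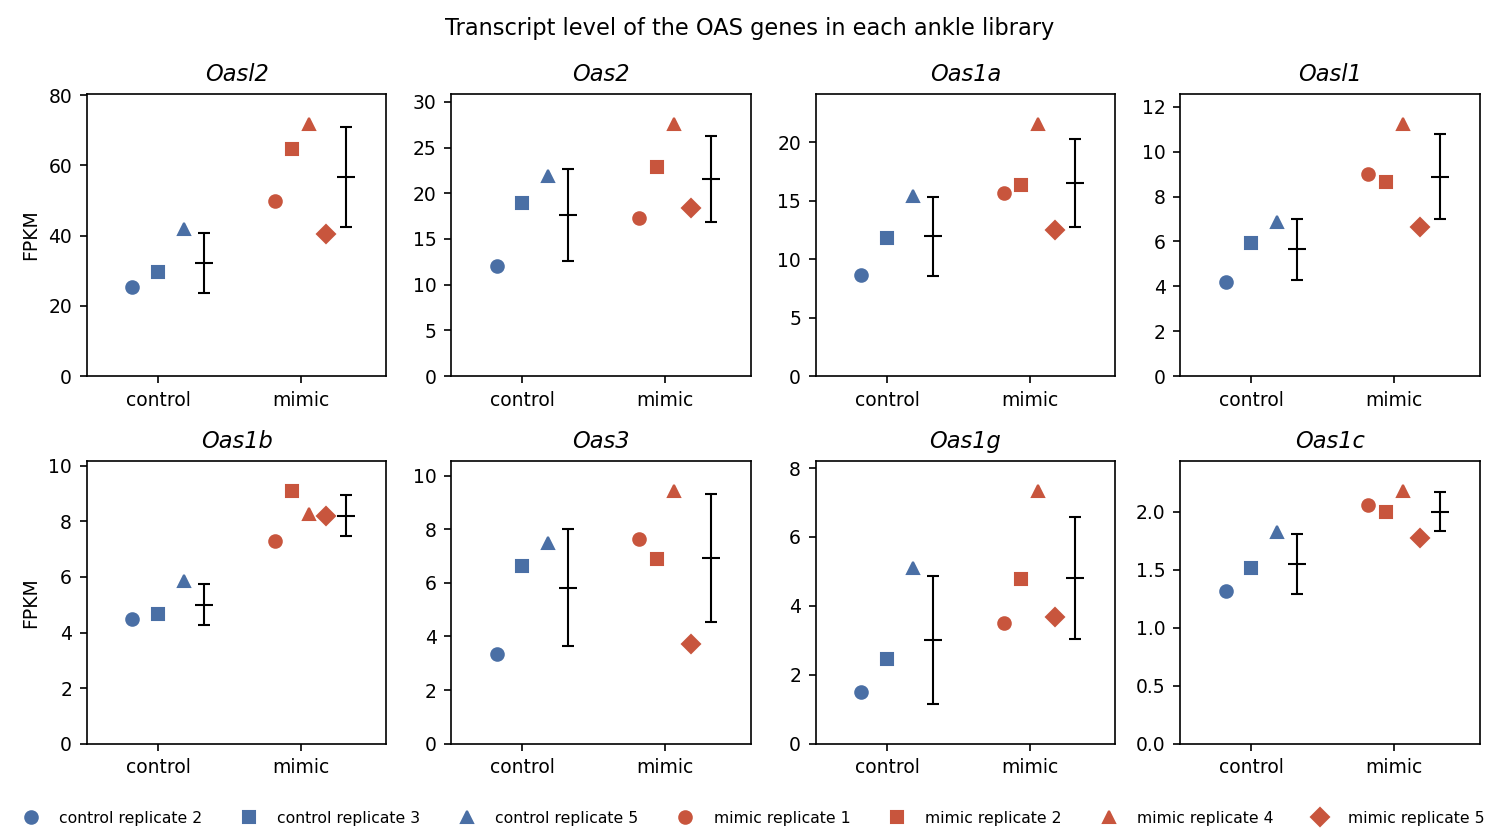
Transcript level (FPKM, each vertical axis from 0) of the 7 OAS genes and of Oas1c, with 1 point per library, 3 control and 4 mimic, and beside each group its mean and SD as a black bar. Among these 8 panels only Oas1b shows groups that do not overlap, higher in the mimic ankles.

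Oas1b showed the clearest separation of the family. This gene is known as the flavivirus resistance locus of mice, and its product is truncated in many laboratory strains. RefSeq lists it as a transcribed pseudogene in the reference strain, and the DBA1 allele was not examined here. Its level was 4.49, 4.67 and 5.85 FPKM in control replicates 2, 3 and 5 and 7.29, 9.08, 8.25 and 8.18 FPKM in mimic replicates 1, 2, 4 and 5. The lowest mimic library thus lay above the highest control. The means were 5.00 ± 0.74 FPKM (SD, n = 3) and 8.20 ± 0.73 FPKM (SD, n = 4), a log2 fold change of 0.66 (limma adjusted p = 0.173, SE 0.11), and Oas1b ranked 20 of 13418 genes by p. It also varied least within groups, with a coefficient of variation of 14.8% in control and 8.94% in mimic ankles. Without control replicate 2 the log2 fold change was 0.60, with a limma adjusted p = 0.0508. Over 16 alternatives in all, its adjusted p ran from 0.0508 to 0.524.

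The other Oas1 members, Oas1a and Oas1g, encode active synthetases and differed less clearly. Oas1a stood at 8.64, 11.8 and 15.4 FPKM in control replicates 2, 3 and 5 and at 15.7, 16.4, 21.6 and 12.5 FPKM in mimic replicates 1, 2, 4 and 5. Of the 4 mimic libraries, replicate 5 lay below the highest control, so the groups overlapped. The log2 fold change was 0.46 (limma adjusted p = 0.331, SE 0.23). Oas1g stood at 1.5, 2.47 and 5.09 FPKM in the controls and at 3.49, 4.79, 7.33 and 3.66 FPKM in the mimic ankles, so that mimic replicates 1, 2 and 5 lay below the highest control. It was the most variable member, with a coefficient of variation of 61.7% in control and 36.7% in mimic ankles. Its log2 fold change of 0.67 (limma adjusted p = 0.376, SE 0.37) was therefore close in size to that of Oas1b with a far larger error. It was 1.07 without control replicate 5 and 0.33 without control replicate 2, and that of Oas1a was 0.26 without control replicate 2.

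The larger synthetases, Oas2 and Oas3, had the smallest differences. Oas2 stood at 12.1, 18.9 and 21.9 FPKM in control replicates 2, 3 and 5 and at 17.3, 22.9, 27.6 and 18.4 FPKM in mimic replicates 1, 2, 4 and 5. Mimic replicates 1 and 5 lay below both of the higher controls, and the log2 fold change was 0.30 (limma adjusted p = 0.507, SE 0.23). Oas3, which encodes the largest synthetase, stood at 3.34, 6.62 and 7.47 FPKM in the controls and at 7.65, 6.91, 9.41 and 3.72 FPKM in the mimic ankles. Here mimic replicate 5 lay near the lowest control, and the log2 fold change was 0.24 (limma adjusted p = 0.727, SE 0.35). Both values moved with single libraries. The log2 fold change of Oas2 was 0.056 without control replicate 2, 0.17 without mimic replicate 4 and 0.47 without control replicate 5. That of Oas3 was -0.088 without control replicate 2, 0.074 without mimic replicate 4, and 0.36, 0.44 and 0.48 without control replicate 3, control replicate 5 and mimic replicate 5.

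The OAS-like genes had larger differences than Oas2 and Oas3. That of Oasl2 was the largest of the members, and that of Oasl1 lay below those of Oas1b and Oas1g. Oasl2, an active synthetase in the mouse, was the most abundant member, at 25.4, 29.6 and 41.8 FPKM in control replicates 2, 3 and 5 and 49.8, 64.7, 71.8 and 40.6 FPKM in mimic replicates 1, 2, 4 and 5. Mimic replicates 1, 2 and 4 lay above all controls, and replicate 5 lay just below the highest control. The means were 32.3 ± 8.52 and 56.7 ± 14.2 FPKM, a log2 fold change of 0.80 (limma adjusted p = 0.193, SE 0.23), which 1.61% of the genes tested exceeded. Oasl1, which lacks synthetase activity and is known to restrain translation of Irf7 mRNA, stood at 4.18, 5.91 and 6.87 FPKM in the controls and at 9.01, 8.64, 11.2 and 6.65 FPKM in the mimic ankles. Its groups overlapped in the same way, through mimic replicate 5, and its log2 fold change was 0.61 (limma adjusted p = 0.216, SE 0.20). Without control replicate 2 these values were 0.65 for Oasl2 and 0.43 for Oasl1.

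**Figure D2:**
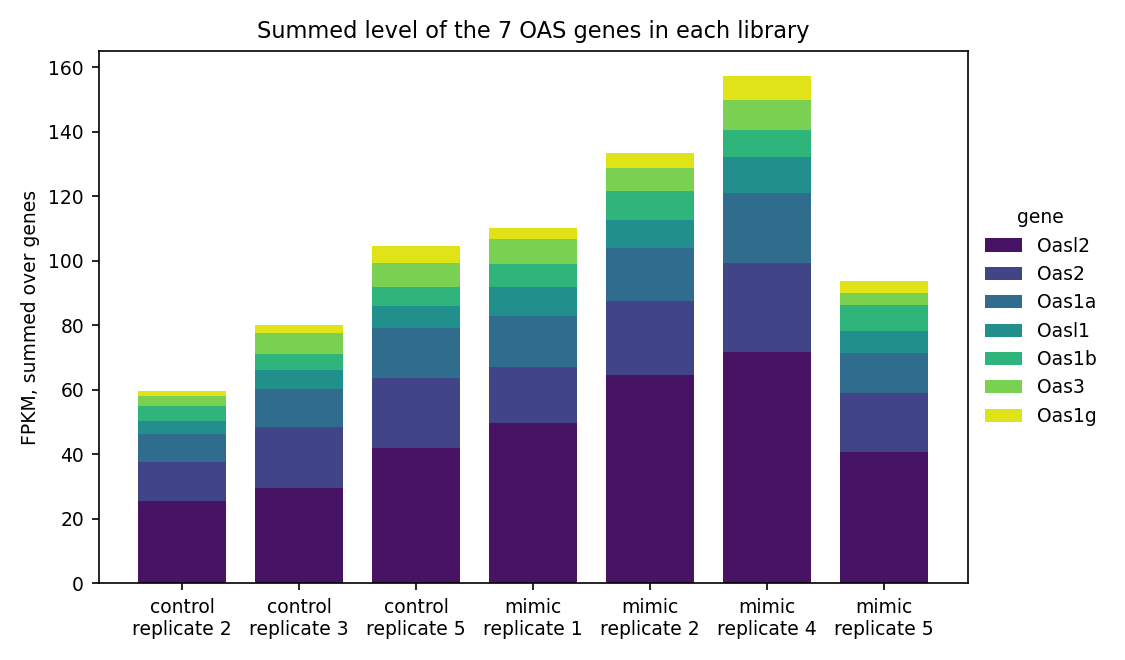
FPKM of the 7 OAS genes stacked for each library (vertical axis from 0, 3 control libraries left, 4 mimic libraries right). The sum ran from 59.7 to 104 FPKM in the control and from 93.6 to 157 FPKM in the mimic ankles, and Oasl2 is the largest block in every library.

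Because FPKM is per length of exon, levels can be set side by side between genes. For Oas1a and Oas1g this is uncertain, since reads of their shared sequence could be split or lost. By mean FPKM over all 7 libraries the order was Oasl2, Oas2, Oas1a, Oasl1, Oas1b, Oas3, Oas1g. The first 3 steps of this order and the last held in 7 of 7 libraries. A loss of reads to shared sequence would recur in every library, so this does not settle the places of Oas1a and Oas1g. The mean log2 ratio of the levels was 1.17 ± 0.32 (SD over 7 libraries) for Oasl2 over Oas2 and 0.46 ± 0.17 for Oas2 over Oas1a. Oasl1 was above Oas1b in 4 of 7 libraries and Oas1b above Oas3 in 3 of 7, so these neighbours did not differ beyond their spread. Oasl2 made up from 37.0% to 42.6% of the summed FPKM of the family in control and from 43.3% to 48.5% in mimic ankles. For Oas2 the share ran from 20.3% to 23.6% and from 15.7% to 19.6%.

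Whether members differed from each other in their change was tested on the log2 ratio of 2 members within a library. Over 21 pairs, an exact 2-sided permutation test across the 35 possible assignments of the libraries gave 0 pairs at an adjusted p under 0.05 and 2 at an unadjusted p under 0.05. The smallest p that these assignments can give is 0.0286, so no pair could pass after adjustment unless many pairs reached it together. Oas1a relative to Oasl2 reached it, with a difference in log2 ratio of -0.34 between mimic and control ankles (exact permutation p = 0.0286, adjusted p = 0.300 over 21 pairs). So did Oas1a relative to Oasl1, with a difference of -0.15. The largest differences were -0.56 for Oas3 and -0.50 for Oas2 relative to Oasl2 (exact permutation p = 0.0857 and 0.0571, adjusted p = 0.360 and 0.300). The log2 ratio of Oas2 to Oasl2 was -0.86 ± 0.21 (SD, n = 3) in control and -1.36 ± 0.17 (SD, n = 4) in mimic ankles. With so few libraries, a pair that missed the threshold is not shown to have changed alike.

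**Figure D3:**
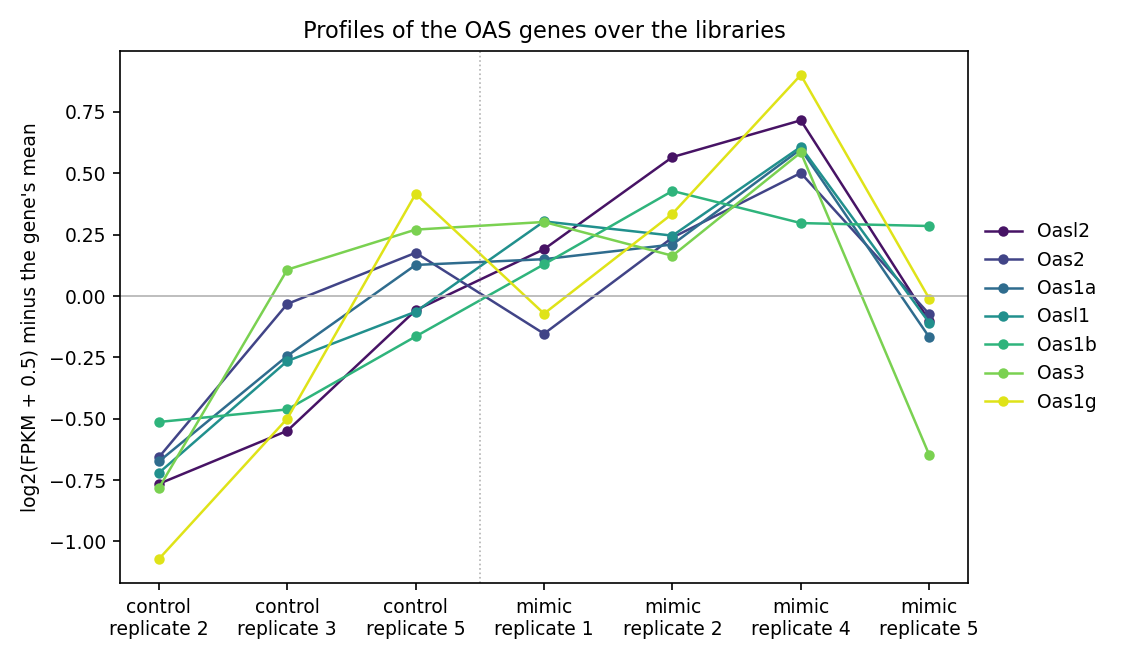
Level of each of the 7 OAS genes in each library, as log2(FPKM + 0.5) minus the gene's mean over the 7 libraries. Libraries have no order within a group and lines only join the values of 1 gene. All 7 lines are lowest in control replicate 2.

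The members' profiles over the libraries were alike in most of their order. Control replicate 2 was the lowest control and control replicate 5 the highest for 7 of 7 members. Among mimic ankles replicate 4 was the highest for 6 of 7, the exception being Oas1b, highest in replicate 2. The share of all genes with these orders was not counted. The members' mean profile, each centred on its own mean, stood at -0.74, -0.28 and 0.10 log2 units in control replicates 2, 3 and 5 and at 0.12, 0.31, 0.60 and -0.12 in mimic replicates 1, 2, 4 and 5. Control replicate 5 thus lay above mimic replicate 5. Each member is part of this mean, so its closeness to the profile is partly to itself. Among the members Oas1a followed the profile most closely, with a root mean square difference of 0.054 log2 units, and Oas3 least, with 0.27. Among all genes tested, Oas1g, Oas1b and Oas3 ranked only 61, 68 and 100 by this closeness. Outside the family, the 5 genes with the closest profiles over the 7 libraries were Gbp7, Ifi44l, Rnf213, Trim30d and Dhx58, at 0.13 to 0.14 log2 units, where the median over genes tested was 0.43. These 5 lay closer to the profile than every member except Oas1a and Oasl1. Gbp7 encodes a guanylate-binding protein, Rnf213 a large ubiquitin ligase and Dhx58 the RNA sensor LGP2. Ifi44l stood at 18.1, 21.1 and 27.6 FPKM in control and 37.2, 36.5, 42.3 and 27.5 FPKM in the mimic libraries, for a log2 fold change of 0.68 (limma adjusted p = 0.176, SE 0.18).

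Among genes that act on the product of the synthetases, Pde12 had a lower mean in mimic ankles and Akap7 a nearly equal one. Pde12 encodes a phosphodiesterase that breaks down the oligoadenylates and Akap7 an anchoring protein with a similar activity, and Abce1, a ribosome recycling factor, was on the same list. None of the 3 passed limma over all genes and 2 had an unadjusted p under 0.05, both lower, beside 10.1% of all genes. Pde12 stood at 3.90, 4.78 and 4.33 FPKM in control and 3.11, 3.16, 3.89 and 3.49 FPKM in mimic ankles, with the highest mimic library just below the lowest control, and 8.84% of all genes were lower without overlap. Its log2 fold change was -0.31 (limma adjusted p = 0.215, SE 0.10). Abce1 had -0.27 (SE 0.088) and Akap7 0.077 (SE 0.10), both with overlapping groups, and Akap7 turned to -0.070 with the replicate number as a block.

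The remaining Oas1 copies were at or near 0, apart from Oas1c. Oas1c stood at 1.32, 1.51 and 1.83 FPKM in control and 2.06, 2.00, 2.18 and 1.78 FPKM in the mimic libraries, for a log2 fold change of 0.29 (limma adjusted p = 0.262, SE 0.12). Its groups overlapped through mimic replicate 5, and 16.3% of its 50-base windows occur in other genes, most often Oas1e. Oas1d and Oas1e had 1 and 3 reads over all 7 libraries. Oas1f had 19 reads, 18 of them in control replicate 5. Oas1h had 0 reads, where 3 reads in a library, the limit that a count of 0 allows, would give at most 0.0642 FPKM for Oas1h. This limit covers counting error only.

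The other sensors of double-stranded RNA and their partners stood higher with the synthetases. All 8 listed genes had a log2 fold change above 0, beside 48.3% of all genes tested, and their median was 0.36. Limma over all genes passed 0 of them, and 6 were higher at an unadjusted p under 0.05, beside 7.48% of all genes. There was no overlap of the groups for 5 of them, Ifih1, Dhx58, Adar, Zbp1 and Mavs, beside 6.48% of all genes. Zbp1, a sensor of Z-form nucleic acid that triggers cell death, stood at 11.9, 19.1 and 20.1 FPKM in control and 33.8, 29.5, 48.7 and 21.1 FPKM in the mimic libraries, for a log2 fold change of 0.92 (limma adjusted p = 0.210, SE 0.29). For Dhx58 the log2 fold change was 0.63 (SE 0.15), and for Ifih1, which encodes the sensor MDA5, it was 0.46 (SE 0.13). For Ddx58, which encodes RIG-I, it was 0.37 (SE 0.14). Adar, an RNA editing enzyme that keeps cellular RNA from being sensed, had 0.34 (SE 0.087) and Eif2ak2, the kinase PKR, 0.27 (SE 0.092). Mavs, the adaptor of the RIG-I-like sensors, had 0.095 (SE 0.053). Without control replicate 2 the log2 fold change was 0.54 for Dhx58, 0.38 for Ifih1, 0.26 for Ddx58 and 0.19 for Eif2ak2.

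**Figure D4:**
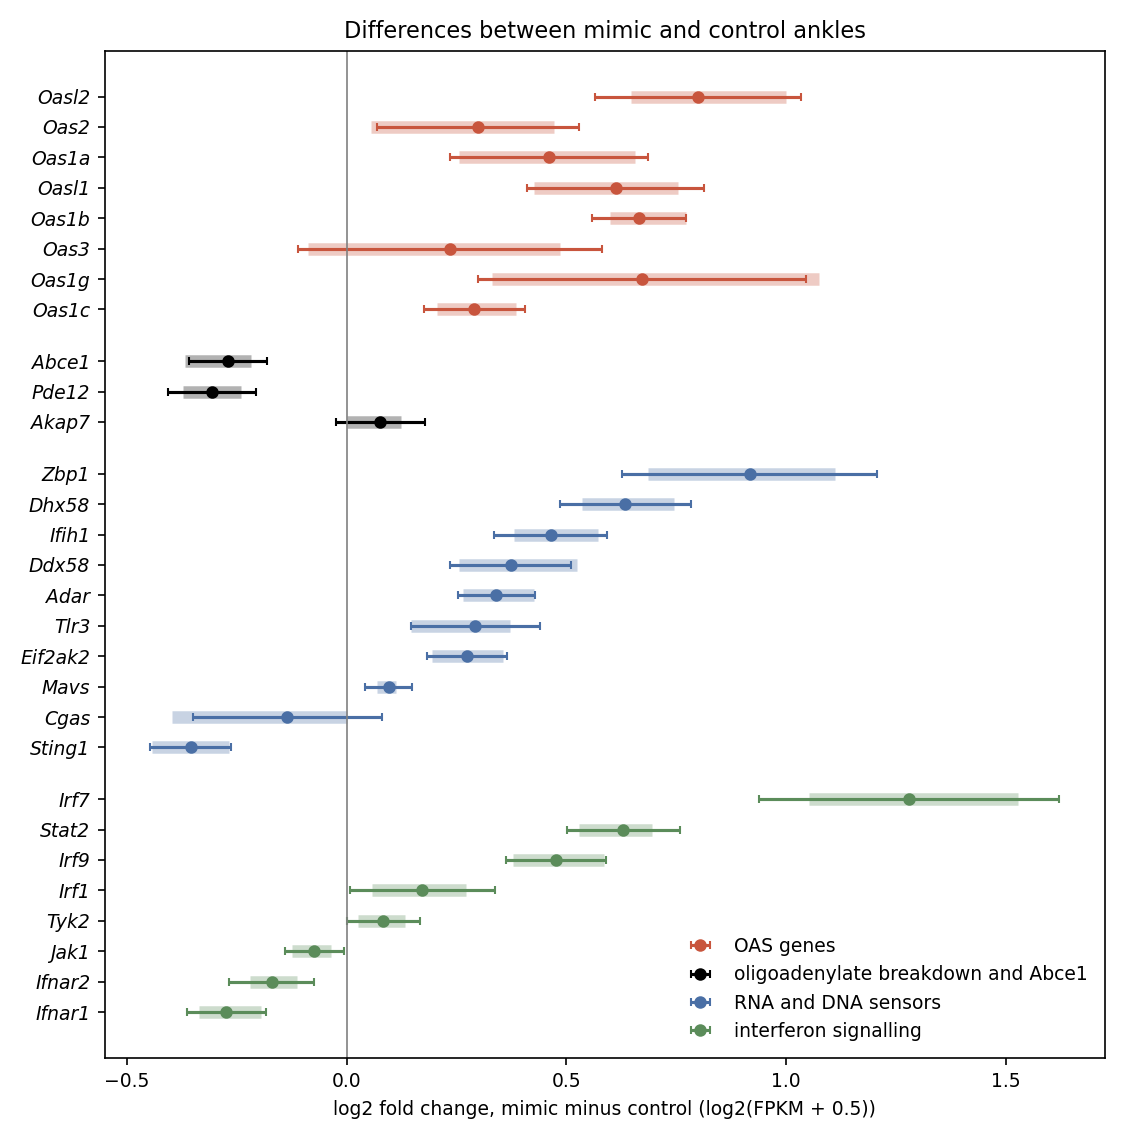
Log2 fold change of each gene between mimic and control ankles (points), with 1 SE (thin bars) and the range when each library was left out in turn (pale bars). Points right of 0 are higher in mimic ankles: Oasl2 is at 0.80, Irf7 at 1.28 and Ifnar1 at -0.27.

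Genes that carry interferon signals to the OAS promoters stood on both sides of 0. None of those named here passed limma over all genes. Irf7, a regulator that is itself induced by interferon, stood at 30.4, 42.3 and 49.5 FPKM in control and 123, 81.0, 157 and 58.1 FPKM in the mimic libraries, for a log2 fold change of 1.28 (limma adjusted p = 0.176, SE 0.34). Of the factors that bind the response element, Stat2 stood 0.63 (SE 0.13) and Irf9 0.48 (SE 0.11) higher on the log2 scale, both with groups that did not overlap, as for 6.48% of all genes. The receptor subunits had lower means. Ifnar1 stood at 21.0, 22.5 and 25.7 FPKM in control and 20.6, 18.1, 19.9 and 17.4 FPKM in mimic ankles, without overlap as for 8.84% of all genes, a log2 fold change of -0.27 (limma adjusted p = 0.217, SE 0.090). Ifnar2 had -0.17 (SE 0.096), with overlapping groups. Of 21 interferon genes, 19 had 0 reads in every library, Ifnb1 and all the listed alpha interferons among them. For Ifnb1 a count of 0 allows at most 0.142 FPKM in a library. Ifng had 16 reads over the 7 libraries, and its highest value was 0.136 FPKM.

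Summed levels of adipocyte, osteoclast and plasmacytoid dendritic cell markers did not overlap between the groups, and their part in the OAS values was not tested. In none of the 12 marker lists did a gene pass limma over all genes. The summed FPKM of 8 adipocyte markers lay between 575 and 1016 in control and between 1122 and 1465 in mimic ankles, with all 8 higher in the mean. For 8 neutrophil markers the sum ran from 2935 to 5749 and from 1238 to 3070, with all 8 lower in the mean but overlapping sums, and for 8 osteoclast markers from 2601 to 2748 and from 2068 to 2279, with all 7 that were tested lower. The 8 macrophage markers overlapped, at 1038 to 1194 and 906 to 1206, and 5 of them had a log2 fold change below 0. For the 8 markers of plasmacytoid dendritic cells, which make type I interferon, the sum ran from 144 to 204 and from 291 to 363. All 6 that were tested had a log2 fold change above 0. Bst2 and Cox6a2 made up most of the sum. The 6 markers without Bst2 and Cox6a2 summed to between 28.7 and 32.8 in control and between 31.4 and 41.3 in mimic ankles. Most of that was Tcf4, at 22.9, 22.0 and 20.8 FPKM in control and 23.5, 22.7, 22.6 and 24.0 FPKM in mimic ankles. Cox6a2, which skeletal muscle also expresses, stood at 96.8, 47.7 and 19.9 FPKM in control and 41.0, 135, 56.7 and 146 FPKM in mimic ankles, with overlap. The median log2 fold change of the 6 tested was 0.18. Bst2, which is itself induced by interferon, had the largest, 1.18 (SE 0.31), and Siglech had 0.13 (SE 0.21). What these values say of the number of such cells was not tested. The ranges of the summed FPKM overlapped for the muscle, erythroid, endothelial, cartilage, fibroblast, T cell and B cell markers, whose median log2 fold changes were 1.06, 1.15, 0.084, 0.44, -0.11, -0.13 and 0.28 in that order. No marker of these 12 lists was at 0 in every library.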

How the data were processed

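Total RNA of 7 ankles was made into libraries with standard Illumina reagents, per the labels' protocols. The authors deposited FPKM per gene and library with each gene's joined exon length, per the file headers. The submitters' processing notes list DESeq2 1.14.1, Subread, featureCounts, STAR 2.5.2b and bcl2fastq 2.20 with no roles, on build GRCm38 (mm10). How strand and reads matching several genes were handled is not stated there. Of 27179 Entrez numbers 25275 matched a RefSeq symbol (GRCm38.p6), and of 152 entries in 20 gene lists 2 had no match.

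FPKM times exon length gave the reads behind each value: 100% came out as whole numbers to within 0.01 of a read. No 2 libraries agreed within sampling noise (lowest chi-square per gene 16.7 among 21 pairs). The main test was limma 3.58.1 (R 4.3.3) with group as its single factor and eBayes set to follow the mean-variance trend. It used log2(FPKM + 0.5) of the 13418 genes whose mean reached 1 FPKM. Fold changes are mimic minus control on that scale, which understates changes of low genes. Tests were 2-sided, with Benjamini-Hochberg adjustment over all genes tested and a threshold of 0.05. The test was checked on simulated data with independent noise and planted changes larger than those of the members. That check does not show its power for changes of their size. Log2 ratios of 2 members were compared by an exact permutation test. Named were the 7 members, the other Oas1 copies, listed pathway genes, and the 5 genes with the profile closest to the members. The members and lists were chosen with earlier results of these data known. Siglech, Bst2, Cox6a2, Mavs, Irf1 and Tyk2 were named after their values were seen. Python 3.11.15, pandas 2.3.3 and matplotlib 3.10.9 were used. Some genes of the pathway are not reported here.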

Additional observations from a re-analysis of the deposited data

How the results depend on the processing

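Over 16 alternatives the count of genes at an adjusted p under 0.05 was 0, except 1 with no filter on low values and, leaving out a library, from 0 to 318, the latter without control replicate 2 (115 higher, 203 lower). In each of these settings 0 members passed. Their median log2 fold change lay between 0.33 and 0.75 when a library was left out, and between 0.46 and 0.66 otherwise. The direction turned for Oas3 without control replicate 2 (leaving out a library, -0.088 to 0.48) and for Cgas without control replicate 5 (-0.40 to 0.0020), and, with the replicate block, for Akap7 (-0.070), Irf1 (-0.040) and Tyk2 (-0.041), none of which passed in either setting; the cause was not tested. The count of member pairs was 0 throughout, which the small number of libraries made nearly certain. Without any 1 library the exact test cannot pass. The replicate number was not treated as a pairing: only numbers 2 and 5 occur in both groups, and the deviations of same-numbered libraries correlated at 0.54 and -0.43. With the replicate block the members' median was 0.46, with 1 member rather than 3 at an unadjusted p under 0.05. Depth limits Oas1d, Oas1e, Oas1f, Oas1h and the interferon genes, which had too few reads for any comparison.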

Other observations

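The DNA-sensing relative of the synthetases did not stand with them. Cgas, which encodes a sensor that shares the OAS fold, stood at 1.69, 3.27 and 3.32 FPKM in control and 2.29, 2.01, 2.94 and 2.35 FPKM in the mimic libraries, for a log2 fold change of -0.13 (limma adjusted p = 0.748, SE 0.21). Its adaptor Sting1 was lower without overlap, as 8.84% of all genes were. Sting1 stood at 38.9, 44.1 and 49.7 FPKM in control and 35.2, 33.8, 36.5 and 31.9 FPKM in the mimic libraries. The log2 fold change was -0.35 (limma adjusted p = 0.176, SE 0.092).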
